A study of Mus musculus with 9 samples.

Results

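Aminoacyl-tRNA synthetases load each transfer RNA (tRNA) with its amino acid, and their transcripts were followed here in mouse CD4+ T cells before and after activation. The set was chosen by gene name, with earlier results of these data known. It holds 20 synthetase genes of the cytosol and 16 of the mitochondrion. The other 3 are genes for scaffold proteins of the multisynthetase complex (Aimp1, Aimp2 and Eef1e1). All 39 were found among the 55573 gene identifiers of the count tables, and all 39 had enough counts to be tested, among 13328 tested genes. Mars1 was matched by its older symbol Mars. RNA came from mouse splenic CD4+ T cells in 3 groups of 3 libraries: naive cells, labelled untreated, and cells activated for 3 hours at 37 °C or at 39 °C in wells with bound anti-CD3 and anti-CD28. These antibodies trigger the T cell receptor complex together with the costimulatory receptor CD28, and 39 °C is a fever-range temperature. Strain, sex and age are not given in the labels, nor is the time that naive cells were in medium, the step at which CD4+ cells were taken from the spleen cells, or whether replicates are different mice. P-values therefore measure the spread between these libraries, which may be technical.

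Library totals ranged from 12647692 to 17605549 counts, and a member had between 106 and 9421 counts in a library. The CD4 T cell markers Cd3e, Cd3d, Cd3g, Cd4, Cd28 and Lck were all detected, with sums of 3085 to 3631 CPM (the count normalised to a library size scaled by edgeR's TMM factors) in naive, 2808 to 2968 CPM at 37 °C and 2901 to 3072 CPM at 39 °C. Markers of other spleen cells differed between naive and activated cells. The sum of 8 B cell markers was 746 to 908 CPM in naive and 228 to 236 CPM at 37 °C, and all 8 were called lower. The sum of 5 erythroid markers was 134 to 225 CPM in naive and 2.80 to 3.22 CPM at 37 °C, and no listed B cell or erythroid marker was at 0 in naive cells. The 5 myeloid markers summed to 7.85 to 8.91 CPM and the 4 NK cell markers to 3.95 to 4.61 CPM in naive cells. At 37 °C these sums were 0.429 to 0.932 CPM and 0.466 to 0.643 CPM, and the 2 CD8 markers went from 25.8 to 36.1 CPM to 13.5 to 15.1 CPM. The part of these cells in the activation results was not tested, and in bulk RNA fewer cells of a type and less RNA per cell cannot be told apart. Ribosomal protein genes took 9.14 to 13.1% of counts in naive and 6.92 to 7.86% at 37 °C. The naive libraries also differed more from each other (chi-square per gene of 10.8 to 43.8 between pairs) than those at 37 °C (2.12 to 5.34) or 39 °C (3.33 to 9.97), and naive library 1 stood farthest from the others. Without it 26 members were higher and 4 lower at 37 °C than in naive cells, against 26 and 3 with it.

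Each synthetase recognises its own tRNAs and joins the matching amino acid to them at the expense of ATP, and the charged tRNA then delivers the amino acid to the ribosome. The enzymes fall into class I and class II, which have unrelated catalytic folds. In animal cells several cytosolic synthetases sit with the scaffold proteins in the multisynthetase complex, whereas mitochondria import a separate set encoded in the nucleus. Lysyl- and glycyl-tRNA synthetase of both compartments come from the genes Kars and Gars. Many cytosolic synthetase genes are known targets of ATF4, the transcription factor of the amino acid response, and a T cell that leaves quiescence raises its protein synthesis.

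Activation at 37 °C was first set against naive cells, to ask which synthetase transcripts differed after 3 hours. Naive cells were labelled untreated with their time in medium not given, so activation and culture cannot be told apart here. The cytosolic synthetase genes rose almost as a whole while the mitochondrial ones moved little and in both directions. Of the 20 cytosolic synthetases 19 rose and 1, Qars, was not called (edgeR quasi-likelihood test, Benjamini-Hochberg adjusted p under 0.05 over all tested genes), where 30.9% of all tested genes were called higher and 31.8% lower. Their median log2 fold change was 1.27, against -0.0025 over all tested genes, and 11 of the 19 rose by at least 2-fold. Among the 13328 tested genes 1435 were called higher by at least 2-fold. Over all 39 members 26 rose, 3 fell and 10 were not called. The 37 °C libraries lay wholly above the naive ones in 26 members and wholly below in 5, where 32.7% of all tested genes lay above and 32.7% below. The members took 0.274 ± 0.017% of all counts in naive libraries and 0.532 ± 0.00318% at 37 °C (SD, n = 3). The cell type marker sums and the ribosomal share given above moved over the same comparison, and their part in it was not tested.

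Among class I enzymes 9 of 10 rose with a median log2 fold change of 1.28. Cars, the cysteine enzyme (ENSMUSG00000010755, GRCm38 chromosome 7, 143557230 to 143600090), changed most of all members. It was at 37.5, 38.9 and 42.2 CPM in naive libraries and at 220, 212 and 224 CPM at 37 °C, a 5.53-fold rise (log2 fold change 2.47 ± 0.068, SE, edgeR adjusted p = 6.27e-11). Yars, the tyrosine enzyme, went from 38.1, 36.2 and 41.2 CPM to 170, 167 and 166 CPM (2.12 ± 0.067), which leaves a wide gap between the groups. Iars, the isoleucine enzyme of the complex, went from 66.4, 83.4 and 76.7 CPM to 306, 326 and 315 CPM (2.06 ± 0.087).

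Eprs carries both the glutamate and the proline enzyme in 1 chain, and also has a described role in translational control outside charging. Its naive values of 96.0, 120 and 111 CPM rose to 302, 309 and 300 CPM (1.48 ± 0.083). Lars, the leucine enzyme, also described as a leucine sensor for the growth kinase mTORC1, rose from 70.1, 69.1 and 72.7 CPM to 176, 175 and 169 CPM (1.30 ± 0.061). Mars1, the methionine enzyme, rose from 64.3, 66.5 and 73.3 CPM to 162, 167 and 162 CPM (1.27 ± 0.066). Rars, the arginine enzyme, rose from 59.1, 52.9 and 55.8 CPM to 133, 134 and 136 CPM (1.26 ± 0.065). These 3 enzymes belong to the complex, and their libraries were tight within each group. Wars, the tryptophan enzyme, known for its induction by interferon gamma, rose from 57.8, 62.8 and 68.7 CPM to 121, 105 and 116 CPM (0.85 ± 0.079), and Vars, for valine, from 157, 193 and 206 CPM to 315, 323 and 301 CPM (0.75 ± 0.091). Qars, the glutamine enzyme of the complex (chromosome 9, 108507706 to 108515941), was at 138, 149 and 164 CPM in naive and 146, 150 and 149 CPM at 37 °C, so its libraries overlapped and its log2 fold change was -0.018 ± 0.073 (adjusted p = 0.845).

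All 10 class II genes rose, with a median log2 fold change of 0.93. Aars, the alanine enzyme (ENSMUSG00000031960, chromosome 8, 111033144 to 111057664), rose from 49.8, 61.5 and 66.9 CPM to 256, 258 and 257 CPM, which is 4.32-fold (2.11 ± 0.094). Nars, the asparagine enzyme, rose from 115, 110 and 109 CPM to 417, 413 and 422 CPM (1.90 ± 0.063). Tars, the threonine enzyme, rose from 66.3, 61.1 and 68.2 CPM to 233, 231 and 239 CPM (1.84 ± 0.065).

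Gars and Kars, which serve both compartments, were both called higher. Gars, for glycine, rose from 86.3, 76.9 and 84.6 CPM to 268, 263 and 267 CPM (1.69 ± 0.066). Kars, for lysine, rose from 119, 112 and 116 CPM to 222, 215 and 224 CPM (0.93 ± 0.065). Sars, the serine enzyme, which also charges the selenocysteine tRNA, rose from 173, 155 and 177 CPM to 321, 310 and 326 CPM (0.92 ± 0.069). Rises were also called for both subunits of the phenylalanine enzyme, Farsb (0.78 ± 0.10) and Farsa (0.63 ± 0.068), for Hars, the histidine enzyme (0.67 ± 0.096), and for Dars, the aspartate enzyme (0.40 ± 0.062). Dars had the smallest of these rises, from 82.8, 75.6 and 82.0 CPM to 106, 108 and 103 CPM, and still no library of 1 group reached the other.

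**Figure D1:**
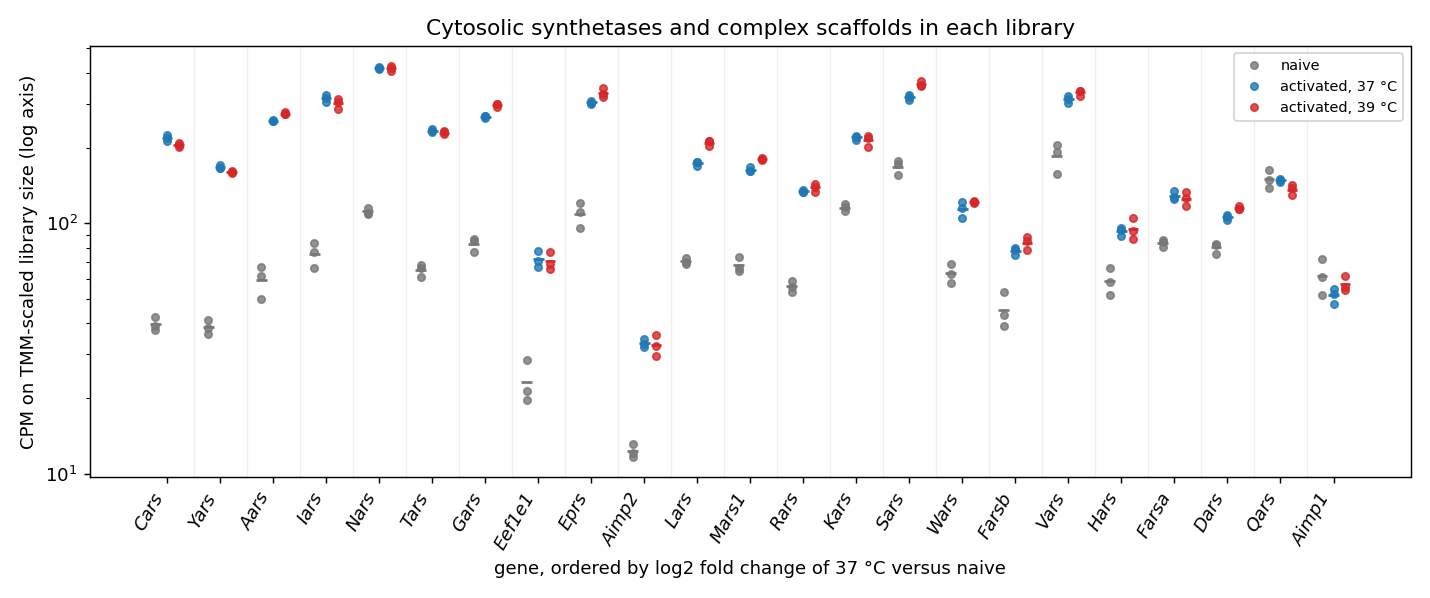
CPM of the 20 cytosolic synthetases and 3 complex scaffolds in every library on a log axis, with 3 points per group and a bar at the group mean, ordered by the log2 fold change of 37 °C versus naive. The naive points lie below the 37 °C points in every gene except Qars and Aimp1, and the points of the 2 temperatures lie close together.

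The scaffold genes did not move together. Aimp2 rose from 11.6, 12.1 and 13.1 CPM to 34.4, 33.0 and 32.1 CPM (1.43 ± 0.094). Eef1e1, also called Aimp3, rose from 28.5, 19.7 and 21.4 CPM to 67.0, 71.0 and 77.2 CPM (1.63 ± 0.12). Aimp1, whose protein is also processed to a secreted cytokine, was at 71.8, 51.7 and 61.0 CPM in naive and 54.9, 47.8 and 52.4 CPM at 37 °C, with overlapping libraries (-0.25 ± 0.11, adjusted p = 0.0631). Aimp1 was called lower under 4 of 16 alternative settings, among them leaving out naive library 2 (-0.36), while without naive library 1 its log2 fold change was -0.13 and not called. Of Aimp2's exon bases 29.4% (487 bases) are shared with exons of Eif2ak1 on the other strand, and the library kit named in the labels does not mark strand, so reads of those bases cannot be told apart. The same holds for 195 exon bases shared by Hars and Hars2 and for 248 shared by Farsb and Sgpp2. Aars shares 1326 exon bases with Exosc6 on the same strand, and Exosc6 is listed at 0 in all libraries. Reads of these shared bases may have been given to Aars or to neither gene, which the tables do not show.

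The 8 synthetases of the complex (Eprs, Iars, Lars, Qars, Mars1, Kars, Rars and Dars) had a median log2 fold change of 1.27 with 7 called higher, and the 12 outside it a median of 1.30 with 12 called higher. The ranges were -0.018 to 2.06 and 0.63 to 2.47. The 13 genes commonly listed as ATF4 targets (Aars, Cars, Eprs, Gars, Iars, Lars, Mars1, Nars, Sars, Tars, Vars, Wars and Yars) had a median of 1.69, and 10 of them rose by at least 2-fold. The other 7 (Dars, Farsa, Farsb, Hars, Kars, Qars and Rars) had a median of 0.67, with 1 rise of at least 2-fold, that of Rars. Of all 13328 tested genes 1435 were called with such a rise. These lists were chosen with earlier results of these data known. Their medians describe the lists and were not tested against each other, and the part of ATF4 was not tested. Vars, Wars and Sars of the ATF4 list rose less than Rars of the other 7.

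Of the 16 mitochondrial genes 5 were higher, 3 lower and 8 not called at 37 °C, against 30.9% of all tested genes higher and 31.8% lower, so the share called higher was near the background. Their median log2 fold change was 0.020. The tyrosine enzyme gene Yars2 rose most, from 22.5, 14.7 and 16.5 CPM to 36.0, 32.2 and 39.1 CPM (1.0 ± 0.14), and no naive library reached the 37 °C range. Nars2, for asparagine, rose from 11.1, 7.501 and 8.46 CPM to 13.4, 13.5 and 12.7 CPM (0.56 ± 0.15), and Tars2, for threonine, from 108, 122 and 122 CPM to 159, 159 and 144 CPM (0.40 ± 0.071). Lars2 (0.44 ± 0.15) and Pars2 (0.31 ± 0.096) were also called higher. Lars2, for leucine, varied widely among naive libraries, at 313, 288 and 426 CPM, against 486, 453 and 453 CPM at 37 °C. Its call was lost without naive library 2 (0.33) or 37 °C library 1 (0.41). The call of Pars2, for proline, was lost with DESeq2 (0.31), without a count filter (0.31) and without 37 °C library 3 (0.27).

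Fars2, the mitochondrial phenylalanine enzyme (chromosome 13, 36117412 to 36726280), fell most, from 16.5, 14.3 and 17.3 CPM to 9.36, 9.65 and 8.23 CPM (-0.82 ± 0.11, adjusted p = 3.81e-05). Cars2 fell from 38.7, 42.9 and 46.5 CPM to 31.8, 34.1 and 31.8 CPM (-0.39 ± 0.094). Iars2 fell from 82.6, 96.2 and 91.3 CPM to 70.1, 70.3 and 68.0 CPM (-0.37 ± 0.074). In Fars2, Cars2 and Iars2 every 37 °C library lay below every naive library. Iars2 shares 22.9% of its exon bases with Rab3gap2 and Fars2 8.72% with Nrn1, on opposite strands, so their values carry the same limit as Aimp2. Wars2 just missed the threshold, at 12.9, 13.5 and 15.5 CPM in naive and 10.8, 12.3 and 10.4 CPM at 37 °C (-0.33 ± 0.14, adjusted p = 0.052), and was called lower under 8 of 16 alternative settings. Sars2, at 24.7, 22.2 and 26.8 CPM against 22.0, 24.0 and 21.6 CPM, overlapped between the groups (-0.13 ± 0.091, adjusted p = 0.248). The remaining 6 mitochondrial genes (Aars2, Rars2, Hars2, Vars2, Mars2 and Ears2) had log2 fold changes from -0.072 to 0.21 without a call. Of these Hars2 lay wholly below the naive libraries, by a small margin, at 56.4, 57.1 and 56.6 CPM in naive and 53.2, 56.2 and 55.1 CPM at 37 °C.

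**Figure D2:**
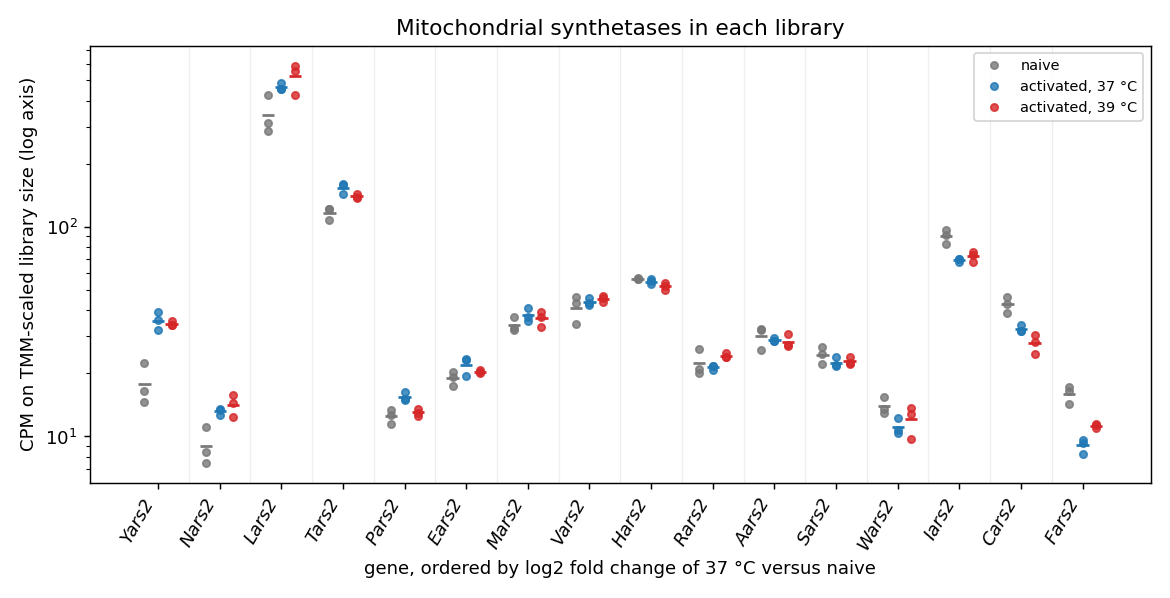
CPM of the 16 mitochondrial synthetases in every library on a log axis, with 3 points per group and a bar at the group mean, ordered by the log2 fold change of 37 °C versus naive. Yars2 at the left rose and Fars2 at the right fell, and naive and 37 °C libraries overlap in Sars2, Aars2, Rars2, Vars2, Mars2 and Ears2.

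Setting each mitochondrial gene beside the cytosolic gene of the same amino acid removes the scaling of a library, since both values come from it. In 16 of 16 such pairs the cytosolic gene had the larger log2 fold change, and in all 16 the ratio of cytosolic to mitochondrial CPM was higher in every 37 °C library than in any naive library. The share among ratios of other genes was not computed. For single genes, an unlike measure, 32.7% of all tested genes lay wholly above the naive libraries at 37 °C. Every cytosolic gene in these pairs was also called higher by itself, so the ratios are not separate support. For cysteine the ratio of Cars to Cars2 was 0.928 ± 0.0358 in naive and 6.73 ± 0.451 at 37 °C, and for isoleucine the ratio of Iars to Iars2 was 0.837 ± 0.0312 and 4.54 ± 0.157 (SD, n = 3). Both ratios passed from below 1 to well above it. CPM takes no account of transcript length, so a ratio of 1 does not mark equal numbers of transcripts. The smallest gap was that of valine, where the ratio of Vars to Vars2 went from 4.50 ± 0.0497 to 7.14 ± 0.318. Pairs with Eprs appear for both glutamate and proline, and Farsa stood for the cytosolic phenylalanine enzyme, so the 16 pairs are not independent of each other. Gars and Kars have no separate mitochondrial gene and entered no pair. Qars (-0.018) and Dars (0.40), lowest of the cytosolic synthetases in log2 fold change, also entered none, since the mitochondrial members hold no counterpart.

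**Figure D3:**
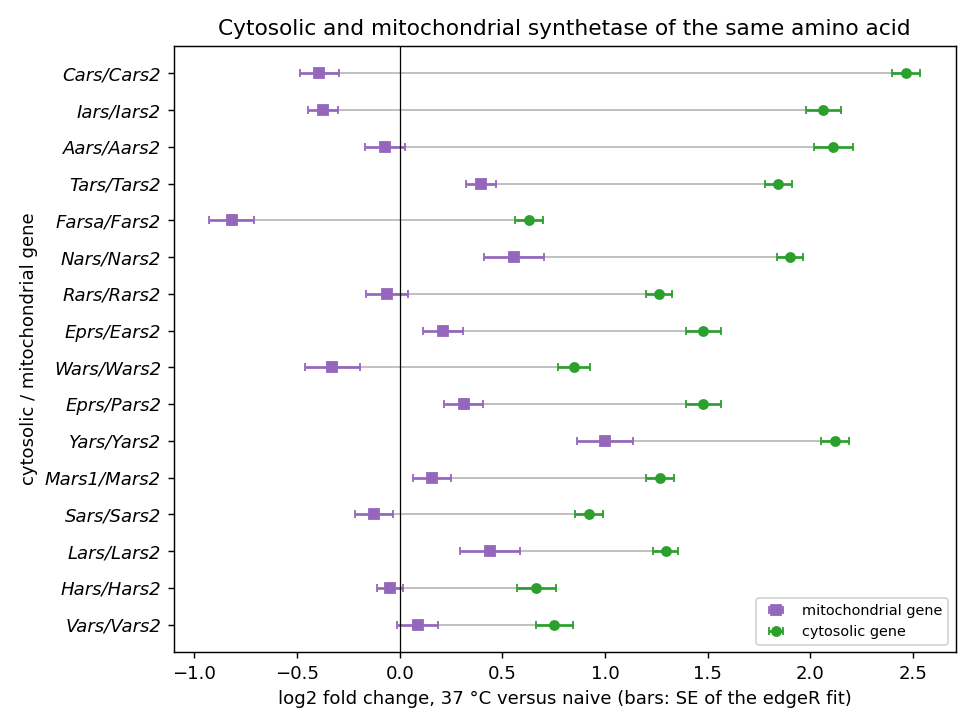
Log2 fold change of 37 °C versus naive for the mitochondrial (squares) and the cytosolic gene (circles) of the same amino acid, with the SE of the edgeR fit as bars. All 16 circles lie to the right of their squares, and the widest gap is that of Cars and Cars2.

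Because ATF4 targets share a short promoter element, the members' promoters were searched for it. The RefSeq promoter table (GRCm38.p6, 250 bases before to 50 after an annotated start) held windows for 30 of the 39 members, 13 of them cytosolic synthetases and 14 mitochondrial. The motif searched was TGATGNAA, the core of the composite element that ATF4 binds with C/EBP partners, on both strands. It was found in 5 members, Aars, Gars, Iars, Tars and Yars, and in 258 of the 9401 tested genes with a window (2.74%). For each of these 5 genes 1 stretch is printed as 30 bases on the strand where the core reads forward, with the core in capitals, to show the core and its flanks.
Yars (chr4:129189895-129189924, same strand as the gene, bases 4 to 11 after the start): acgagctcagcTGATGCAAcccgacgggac
Iars (chr13:49682126-49682155, opposite strand, bases 8 to 15 after the start): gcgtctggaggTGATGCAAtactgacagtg
Tars (chr15:11399655-11399684, opposite strand, core from -15 to -8): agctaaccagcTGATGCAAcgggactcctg
Gars (chr6:55037960-55037989, opposite strand, core from -30 to -23): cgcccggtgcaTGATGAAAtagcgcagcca
Aars (chr8:111033840-111033869, opposite strand, bases 10 to 17 after the start): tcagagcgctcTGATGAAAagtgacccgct

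The 5 cytosolic synthetases with the core had log2 fold changes of 1.69 to 2.12 at 37 °C, and the 8 with a window but no core had -0.018 to 1.48, so the ranges did not overlap. The motif was chosen after these values were seen, so the split only describes these genes, and the part of ATF4 was not tested. Of the 14 mitochondrial genes with a window 0 held the core, which is near the share of 2.74% among tested genes with a window. The 7 cytosolic genes that have no window in the table include Cars and Nars. Of the 258 tested genes with the core, 36.8% were higher and 38.0% lower at 37 °C than in naive cells. Of the 9143 with a window but no core, 31.8% were higher and 33.7% lower. Between the temperatures 5 of the 258 were called higher and 1 lower at 39 °C, against 8 and 66 of the 9143. A match to these letters is a description and not a binding site, and its absence concerns only this window.

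CACGTG, the E-box that Myc and other factors bind, was searched in the same windows because Myc is known to act in early T cell growth. It stood in 5 members (Aars, Iars, Tars, Farsb and Ears2) of 30, and in 11.9% of tested genes with a window. The 4 cytosolic genes with it had log2 fold changes of 0.78 to 2.11 and the 9 without it -0.018 to 2.12, so these ranges overlapped. Aars, Iars and Tars hold the core TGATGNAA as well, so the motifs cannot be told apart in these genes.

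**Figure D4:**
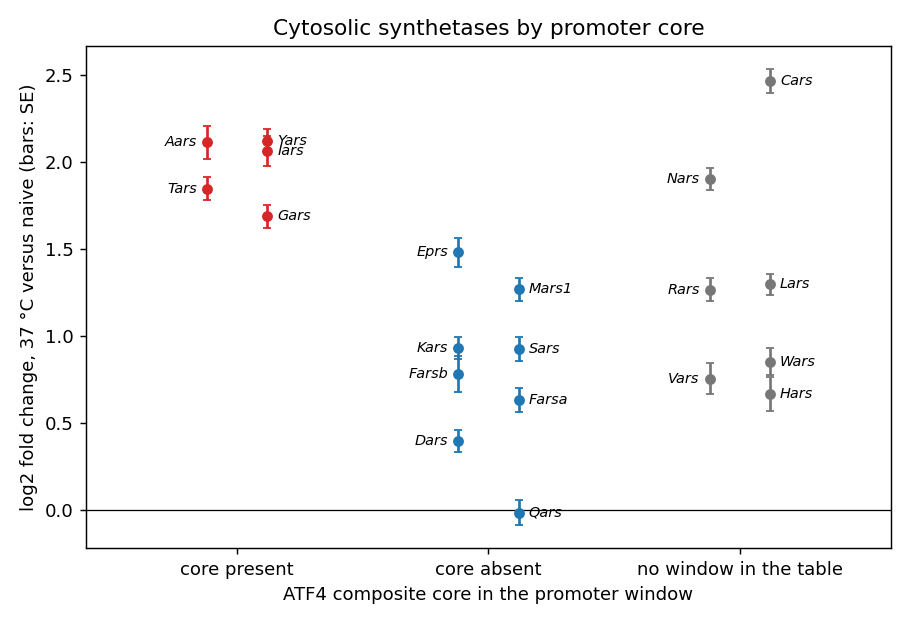
Log2 fold change of 37 °C versus naive (bars: SE of the edgeR fit) of the 20 cytosolic synthetases, split into 5 with the core TGATGNAA in the promoter window, 8 without it and 7 that have no window in the table. The 5 genes with the core lie at 1.69 or above and the 8 without it at 1.48 or below. The motif was chosen after these values were seen.

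The comparison of 39 °C with 37 °C asks whether the fever-range temperature changed this set in activated cells. No member was called by edgeR, 0 higher and 0 lower of 39, where 0.135% of all tested genes were called higher and 0.623% lower. DESeq2 called 1 member, Lars, higher. At an unadjusted p under 0.05 there were 5 members higher and 2 lower, against 3.71% and 4.25% of all tested genes. The median log2 fold change was 0.029, and 35 of 39 members had an absolute log2 fold change under 0.2. The 95% intervals of the cytosolic synthetases reached from -0.28 to 0.40 and those of all members from -0.46 to 0.56, so none of these intervals includes a 2-fold change.

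Lars (ENSMUSG00000024493) came closest to a call. It was at 176, 175 and 169 CPM at 37 °C and at 204, 214 and 212 CPM at 39 °C, so all 39 °C libraries lay above all 37 °C libraries. The log2 fold change was 0.27 ± 0.059, or 1.21-fold, with a 95% interval of 0.15 to 0.40 (adjusted p = 0.0694, edgeR). Lars was called with DESeq2 (adjusted p = 0.00419), with the 6 activated libraries alone (adjusted p = 0.00454) and without naive library 1 (adjusted p = 0.00792) or 2 (adjusted p = 0.043). Its adjusted p ran from 0.00419 to 0.394 over all settings.

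Sars went from 321, 310 and 326 CPM to 372, 357 and 353 CPM (0.18 ± 0.068, unadjusted p = 0.0238, adjusted p = 0.499, edgeR). Gars went from 268, 263 and 267 CPM to 298, 299 and 291 CPM (0.15 ± 0.064, adjusted p = 0.554). Mars1 went from 162, 167 and 162 CPM to 182, 181 and 179 CPM (0.14 ± 0.064, adjusted p = 0.624). In these genes too the libraries of the temperatures did not overlap, but 10.7% of all tested genes lay wholly above and 10.3% wholly below in this comparison, and of the members 10 lay above and 6 below. Mars1 shares 68 exon bases with the end of Ddit3 on the other strand, and Ddit3 was called higher at 39 °C (0.59 ± 0.084); the part of such reads was not tested.

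Among mitochondrial genes Fars2 was at 9.36, 9.65 and 8.23 CPM at 37 °C and 11.5, 11.4 and 11.01 CPM at 39 °C (0.31 ± 0.11, adjusted p = 0.444). These values lie between those at 37 °C and those in naive cells. Pars2 was at 15.2, 14.96 and 16.4 CPM and at 12.6, 13.6 and 13.0 CPM (-0.25 ± 0.097, adjusted p = 0.505), and the values at 39 °C overlap the naive ones of 12.7, 11.4 and 13.3 CPM. Cars2 was at 31.8, 34.1 and 31.8 CPM and at 24.9, 28.4 and 30.6 CPM (-0.22 ± 0.097, adjusted p = 0.596).

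The 6 members that rose most at 37 °C against naive cells lay at 39 °C within 0.1 of their 37 °C level on the log2 scale. Nars was at 427, 404 and 415 CPM at 39 °C (-0.0063 ± 0.061), Tars at 231, 234 and 227 CPM (-0.024 ± 0.062), Iars at 286, 305 and 314 CPM (-0.063 ± 0.082), Yars at 162, 160 and 160 CPM (-0.065 ± 0.062) and Cars at 208, 202 and 205 CPM (-0.093 ± 0.063). Aars was at 273, 277 and 273 CPM (0.095 ± 0.089). Libraries of the temperatures overlapped for Nars, Tars and Iars, while those at 39 °C lay wholly below for Yars and Cars and wholly above for Aars. Eprs was at 319, 327 and 347 CPM (0.12 ± 0.081), Wars at 123, 122 and 121 CPM (0.098 ± 0.077) and Kars at 222, 220 and 201 CPM (-0.038 ± 0.064). The scaffolds were not called either: Aimp1 was at 61.4, 55.5 and 54.4 CPM (0.14 ± 0.11), Aimp2 at 35.8, 32.3 and 29.6 CPM (-0.025 ± 0.088) and Eef1e1 at 76.7, 65.7 and 68.7 CPM (-0.026 ± 0.12).

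**Figure D5:**
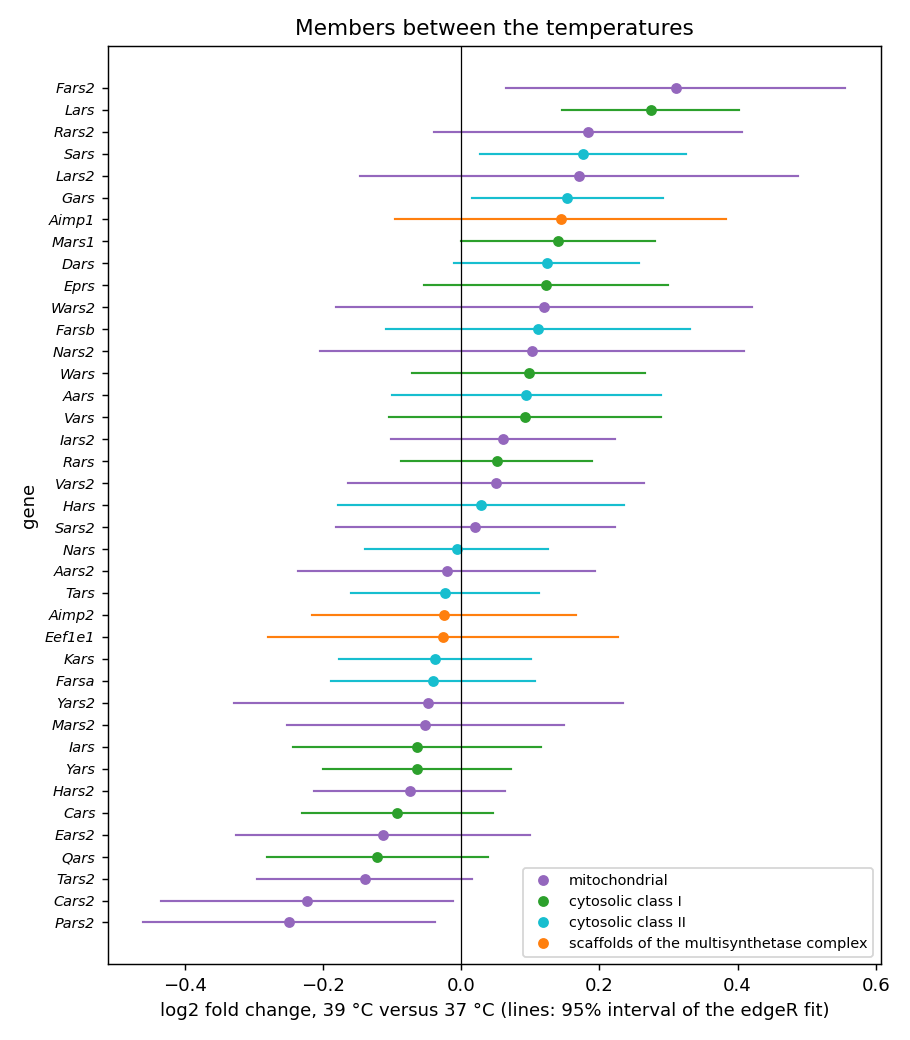
Log2 fold change of 39 °C versus 37 °C for all 39 members with the 95% interval of the edgeR fit, coloured by group. The points lie between -0.25 and 0.31, and the interval of Lars is the one farthest from 0.

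Against naive cells, the cells at 39 °C gave 25 members higher, 3 lower and 11 not called, where 29.2% of all tested genes were called higher and 29.8% lower. This comparison shares the naive libraries with that at 37 °C, so the values are given side by side and not as separate support. Again 19 of 20 cytosolic synthetases rose and Qars was not called (-0.14 ± 0.073). Cars stood at 2.37 ± 0.068 at 39 °C and 2.47 ± 0.068 at 37 °C, Aars at 2.21 ± 0.095 and 2.11 ± 0.094, Lars at 1.57 ± 0.061 and 1.30 ± 0.061. Of the mitochondrial genes 4 were called higher (Yars2, Nars2, Tars2 and Lars2) and 3 lower (Fars2, Cars2 and Iars2). Pars2, called at 37 °C, stood at 0.062 ± 0.098 at 39 °C; the direct comparison of the temperatures did not call it.

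Of 27 listed partners (tRNA exporters and modifiers, proofreading factors, elongation factors and synthetase relatives) 12 rose, 7 fell and 8 were not called at 37 °C, with a median log2 fold change of 0.10, where 30.9% of all tested genes were called higher and 31.8% lower. Xpot, the exporter of tRNA from the nucleus, rose from 56.4 to 193 CPM (1.78 ± 0.073), and Nsun2, a tRNA methyltransferase, rose by 1.37 ± 0.065. Pstk, the kinase of the selenocysteine pathway, fell (-1.02 ± 0.13), as did Dtd1, a proofreading deacylase that removes D-amino acids from tRNA (-0.94 ± 0.13). Tarsl2, the second cytosolic threonine enzyme, fell by 0.75 ± 0.13 on the log2 scale while Tars rose. Between the temperatures 0 of 27 partners were called by edgeR, with 1 at an unadjusted p under 0.05, where 0.135% of all tested genes were called higher and 0.623% lower, and 3.71% and 4.25% passed the unadjusted p.

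Of 10 listed genes that sense or answer amino acid shortage 9 rose and 1 fell at 37 °C, with a median log2 fold change of 1.08, against the same 30.9% and 31.8% of all tested genes. Asns, asparagine synthetase, went from 0.186 to 8.49 CPM (5.55 ± 0.38). Chac1, a glutathione-degrading enzyme, had 0 counts in the naive group; with 3 counts over that group as its floor, a limit of counting error only, the 37 °C mean of 12.5 CPM was at least 194-fold higher. Atf4 itself rose by 0.59 ± 0.078, and Eif2ak4, the kinase that senses uncharged tRNA, by 0.41 ± 0.10. Ppp1r15a, which promotes dephosphorylation of the initiation factor eIF2, fell (-1.56 ± 0.066). Between the temperatures Ddit3 (0.59 ± 0.084, adjusted p = 0.00558, edgeR) and Trib3 (0.48 ± 0.082, adjusted p = 0.0157) were called higher, as were 0.135% of all tested genes, while Atf4 (0.023 ± 0.078) and Asns (-0.24 ± 0.21) were not called. Of these 10 genes 9 had a window in the promoter table, and 3 of the 9, Asns, Chac1 and Trib3, held the core TGATGNAA, against 2.74% of tested genes with a window. Atf4, Ddit3, Sesn2, Eif2ak4, Ppp1r15a and Eif2s1 did not hold it in their windows, nor did any of the 20 charging partners with a window, Xpot among them. The lists and the motif were chosen with results of these data known, so these counts only describe the listed genes. The part of ATF4 was not tested here either.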

How the data were processed

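RNA sequencing libraries of 3 groups of 3 were read from 1 table each. The authors deposited raw counts of reads per gene, without normalisation. Per the submitters' processing notes the build was GRCm38 and the tools included HISAT2, HTSeq, FastQC and DESeq2, with no versions; the annotation release and strand setting are not given in the sources used here. Per the labels, total RNA was prepared with TRIzol and a TruSeq kit. GENCODE M21 supplied symbols and GRCm38 coordinates.

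Low counts were removed with filterByExpr (at least 10, and 15 in total). After TMM scaling, 1 quasi-likelihood model in edgeR 4.0.16 under R 4.3.3 covered all 9 libraries. Two-sided p-values were adjusted by Benjamini-Hochberg over 13328 genes, with 0.05 as threshold. Standard errors and 95% intervals come from the fold change, its F statistic and degrees of freedom. The fit was tested on simulated data. Every member may be named; values per library were given for the 6 highest and 6 lowest members at 37 °C, the 6 lowest p between temperatures, and 7 by name, with other members added after their values were seen. The members and lists were chosen with earlier results of these data known, and the promoter motifs after the values were seen. Alternatives were RLE or library size scaling, other filters, DESeq2 1.42.0, a replicate block, the 6 libraries of a contrast and leaving out each library. A promoter stretch and a gene of the charging list are not reported here.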

Additional observations from a re-analysis of the deposited data

How the results depend on the processing

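No member changed direction with a call under any of the 16 alternatives. At 37 °C against naive, 25 to 26 members were higher throughout, and the 3 lower became 5 with library size scaling and 5 without a count filter, with Aimp1 and Wars2 added both times. Leaving out each library in turn gave 25 to 26 higher and 3 to 4 lower at 37 °C against naive, 25 to 26 higher and 3 to 4 lower at 39 °C against naive, and 0 to 1 higher and 0 lower between the temperatures. Between the temperatures the 0 members higher became 1 with DESeq2 and 1 with the 6 libraries of the contrast, and that member was Lars each time. The cause was not tested. Over all genes, 18 higher and 83 lower between the temperatures became 38 and 113 with DESeq2, 43 and 133 without a count filter, 136 and 265 with the 6 libraries alone, and 7 to 89 and 30 to 202 when a library was left out. Replicate numbers are shared across groups, but correlations of the deviations of same-numbered libraries ran from -0.24 to 0.43 and were not all positive, so the numbers were not taken as pairs. With a replicate block 26 members were higher and 4 lower (Aimp1 added) at 37 °C against naive, 0 and 0 between the temperatures, and 25 and 3 at 39 °C against naive. Without naive library 1 Qars was called lower (-0.19) and Rars2 higher (0.25) at 39 °C against naive. Standard errors between the temperatures ran from 0.059 to 0.145, which limits what could be called there.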

Other observations

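Levels per transcript length (TPM, using the annotated principal transcript of each gene) put the set in an order that differed between naive and activated cells. In naive cells Kars stood highest of the cytosolic synthetases at 113 ± 8.57 TPM, with Qars at 106 ± 16.6 TPM within its spread, and Aars lowest at 20.4 ± 4.55 TPM, with Cars at 24.2 ± 3.22 TPM and Yars at 26.0 ± 2.63 TPM just above (SD, n = 3). At 37 °C Nars led at 328 ± 5.16 TPM, followed by Gars at 241 ± 4.02 TPM and Kars at 236 ± 0.674 TPM, and Farsb was lowest at 82.0 ± 3.83 TPM. The highest cytosolic level was 5.53 times the lowest in naive cells and 3.99 times at 37 °C. Lars2 was the highest mitochondrial gene in both groups, at 172 ± 38.3 TPM and 257 ± 10.7 TPM. The other mitochondrial genes lay between 4.62 and 96.2 TPM in naive cells. The sum over the 16 mitochondrial genes was 547 ± 72.0 TPM in naive cells and 702 ± 27.6 TPM at 37 °C, and that over the 10 class II genes 668 ± 40.0 and 1659 ± 23.1 TPM. The mitochondrial sum leans on Lars2, and the 16 genes had a median log2 fold change of 0.020, with 5 called higher and 3 lower. These orders depend on the transcript chosen for each length.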
